A study of Homo sapiens with 4 samples.

Results

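Histone variants outside the clusters are the histone genes that sit alone in the genome and not in the large histone gene clusters. The 10 members were taken by symbol from the expression table of 18398 rows: H2AFX, H2AFZ, H2AFV and H2AFJ of the H2A family, H2AFY and H2AFY2 of the macroH2A family, H3F3A and H3F3B, which both encode H3.3, and the linker histone genes H1F0 and H1FX. All 10 had a row, and all 10 passed the filter of 1 RPKM described with the tests. RPKM is a number of reads scaled by the length of the transcript and by the reads of the library. Levels of different genes can thus be set side by side as far as the lengths used are right.

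The values came from Huh1 and Huh7, both established cell lines of hepatocellular carcinoma, the main cancer of liver cells. Each line was transfected with a negative control siRNA (NCsiRNA) or with an siRNA against CDCA8 (CDCA8-1siRNA), at 15 nM for 48 h. CDCA8 encodes Borealin, a subunit of the chromosomal passenger complex, which corrects chromosome attachment in mitosis and acts in cytokinesis. There were 4 RNA-seq libraries, 1 for each line and siRNA, with no replicate, so the spread between cultures of 1 group was not measured.

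Bulk histones are made in S phase from clustered genes whose mRNAs end in a stem-loop in place of a poly(A) tail. Most variants are instead made from polyadenylated mRNAs through the whole cell cycle, and they replace bulk histones at chosen sites or in cells that no longer divide. H2A.X carries the phosphorylation that marks DNA breaks, H2A.Z sits at the nucleosomes beside promoters, macroH2A is found in silent chromatin, H3.3 is laid down outside replication, and H1.0 is known from quiescent and differentiated cells.

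Depth was similar among the libraries, and the targeted gene was low in both knockdowns. The constant that turns reads into RPKM corresponded to between 12197606 and 13384836 reads per library. CDCA8 itself stood at 24.1 and 5.86 RPKM with NCsiRNA and CDCA8-1siRNA in Huh1, and at 51.5 and 7.36 RPKM in Huh7. That left 24.3% and 14.3% of the control level. All 12 hepatocyte markers that were looked up were at 1 RPKM or more in every library. Their sums were 6420 and 5430 RPKM in Huh1 and 3630 and 2600 in Huh7. In limma, against 436 of all 10357 genes tested, 8 of the 12 fell with CDCA8-1siRNA. The part of this change in the values of the histone variants was not tested. Of 5 fibroblast markers none reached 1 RPKM in Huh1, whereas 3 did so in both Huh7 libraries, led by COL1A1 and COL1A2, while DCN and PDGFRB stayed below 1 RPKM. Both endothelial markers with a row were at or near 0, and of 4 leukocyte markers only CD68 reached 1 RPKM.

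H2AFX is the member that shares a feature with the clustered genes, and its stem-loop is shown for that reason. H2AFX (NM_002105) is a gene of 1 exon on the minus strand, at chr11:119093854-119095467 in GENCODE 29 on GRCh38. The motif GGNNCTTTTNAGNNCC was searched on the transcript strand, and the bases that matched are in capitals:
H2AFX: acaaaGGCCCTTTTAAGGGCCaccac
It lies at chr11:119094898-119094913 in the 3′UTR, 52 bases after the last coding base of the annotation, and 1044 further bases of the transcript follow it. H2AFX is known to give both a short mRNA that ends at this stem-loop and a long polyadenylated mRNA, and the table held 1 value for the gene. Whether the libraries were selected by poly(A) tail was not established here, so the part of each form in that value is not known. Among the members, 1 of 10 had the motif. It occurred in 52 of 19669 protein-coding genes (0.264%), and in 25 of 63 clustered histone genes (39.7%). A gene without these letters may carry a variant of the stem-loop that was not searched.

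H2AFX, H2AFZ, H2AFV, H2AFJ and H3F3B also held the box CCAAT close to the start of transcription. In the RefSeq windows of 250 bases before to 50 bases after a start (GRCh38.p14), 9 of 10 members were matched, and the members H3F3A and H2AFY had several windows. CCAAT was found on either strand in 7 of the 9, against 34.6% of 35116 windows. TTTGAA was found in 2 (H2AFX and H2AFZ), against 15.2%, and TATAAA in 4 (H2AFX, H2AFZ, H3F3B and H1FX), against 11.5%. These shares count single windows, while a member was counted if any of its windows matched, so the units are unlike. H2AFY2 and H1FX had no CCAAT in their windows. For the members with 1 window and with the box, 21 bases around the copy nearest to the start on its upstream side are given 5′ to 3′ in the direction of transcription, with CCAAT or its reverse complement ATTGG in capitals:
H2AFX: gaaaagagCCAATcaggaggg
H2AFZ: tggcagccATTGGtgggatga
H2AFV: aagcgggcATTGGccacagca
H2AFJ: caccagagCCAATggaaaggg
H3F3B: agcgcccaCCAATagaaaaag
These lie at chr11:119095520-119095540, chr4:99950343-99950363, chr7:44848101-44848121, chr12:14774332-14774352 and chr17:75779866-75779886, in that order, on the minus strand except for H2AFJ. The box began 67, 80, 26, 65 and 99 bases before the start of the RefSeq window. For H2AFZ and H3F3B that start differs from the outer end of the gene in GENCODE, and the printed bases lie inside the GENCODE gene span. H2AFX, H2AFZ, H2AFV and H3F3B were lower with CDCA8-1siRNA in both lines and H2AFJ was higher in both, as given with their values. H2AFY and H3F3A also had the box in a window. H2AFY was higher in both lines, by only 0.003 on the log2 scale in Huh7, and H3F3A moved in opposite directions. Of the members without the box, H1FX was also lower in both lines (-0.196 in Huh1 and -0.012 in Huh7). H2AFY2 moved in opposite directions. A link between the box and these directions was not tested. The motifs were chosen after the values were seen, and a match of letters is not a test of binding.

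In level, the members spanned from 3.39 to 444 RPKM, and their order was nearly the same in all 4 libraries. The means over the 4 libraries were 367 RPKM for H2AFZ, 364 for H3F3A, 146 for H3F3B, 100 for H2AFY, 70.7 for H1F0, 45.6 for H2AFV, 33.3 for H2AFX, 19.3 for H1FX, 8.99 for H2AFY2 and 7.81 for H2AFJ. H2AFZ and H3F3A could not be ordered, as their ranges of 310.3 to 444 and 312 to 442 RPKM overlapped. In Huh1 H3F3A came first in both libraries, and in Huh7 H2AFZ did. At the low end H2AFJ exceeded H2AFY2 in both Huh1 libraries and fell short of it in both Huh7 libraries. The ranges of H1F0, H2AFV and H2AFX also overlapped from one to the next, although these 3 kept their order within every library. Between H3F3A and H3F3B, H3F3B and H2AFY, H2AFY and H1F0, H2AFX and H1FX, the ranges were apart. Together the members summed to 1107 RPKM in Huh1 with NCsiRNA, 1153 with CDCA8-1siRNA, 1257 in Huh7 with NCsiRNA and 1135 with CDCA8-1siRNA. H2AFZ and H3F3A made up 64.5%, 65.2%, 60.6% and 61.3% of that.

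**Figure D1:**
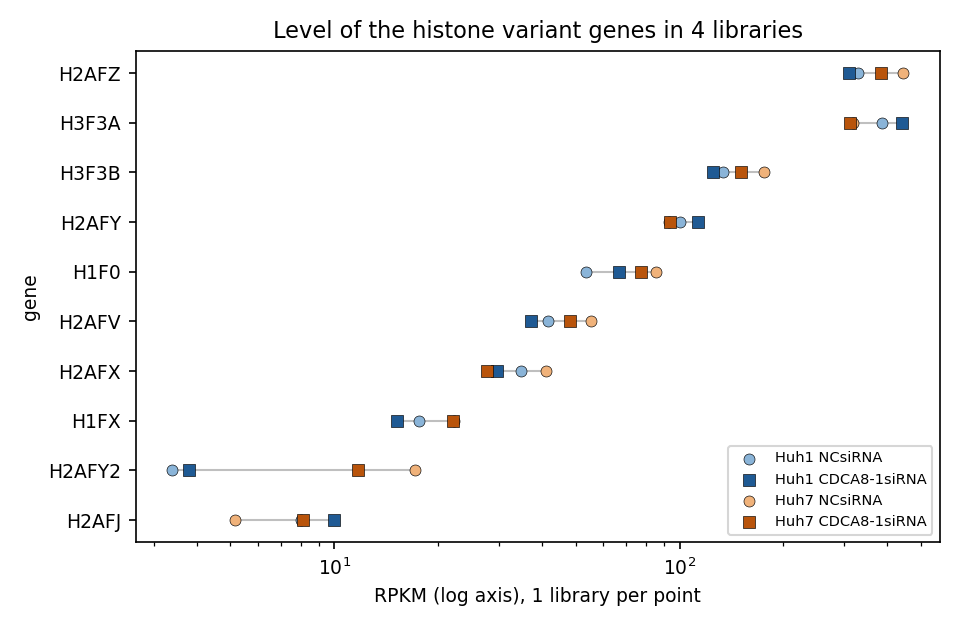
RPKM on a log axis (x) of each of the 10 histone variant genes (y, by mean level), with 1 point per library and a grey line from the lowest to the highest. H2AFZ and H3F3A lie between 310.3 and 444 RPKM in every library, and H2AFY2 alone spreads 5.04-fold, with the blue points of Huh1 left of the orange points of Huh7.

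Tests across genes used limma on log2(RPKM + 1) with the cell line and the siRNA as terms, over the 10357 genes at 1 RPKM or more in at least 1 library of each line. The term for the siRNA tests whether the mean change over both lines differs from 0. A difference in change between the lines enters its error and was not tested. Between siRNAs 0 of the 10 members had an adjusted p under 0.05 in limma, against 10.2% of all genes tested, and 2 of 10, H2AFX and H2AFJ, had an unadjusted p under 0.05, against 26.0% of all genes. These 2 had an adjusted p under 0.05 with a filter at 5 RPKM, as did 13.2% of all genes, where 9 members were tested, and with quantile normalization, as did 14.8% of all genes. In single lines, 0 of 10 members differed 2-fold in Huh1, where 0.494% of all genes did, and 0 of 10 in Huh7, where 1.57% did. Lower in both lines were 5 members (30.5% of all genes), higher in both were 2 (39.0%), and 3 moved in opposite directions (30.6%), counts that carry no threshold. H1FX, at -0.01 in Huh7, was at 0.001 there with upper quartile scaling. The median log2 difference over the members was -0.12 in limma, beside 0.03 over all genes, with 0.02 for the members and 0.02 for all genes in Huh1, and -0.17 and 0.03 in Huh7.

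H2AFX, which encodes H2A.X, had 34.7 RPKM with NCsiRNA and 29.7 with CDCA8-1siRNA in Huh1, and 41.0 and 27.7 in Huh7. A pair of values for a line is always given in the order NCsiRNA, then CDCA8-1siRNA. The level was lower with CDCA8-1siRNA in both lines, and both knockdown libraries were below both control libraries. H2AFX kept 85.7% of its control level in Huh1 and 67.6% in Huh7, a log2 difference of -0.22 ± 0.08 and -0.55 ± 0.08 (SD from sampling of reads, 1 library per group). The SD came from 541.5 to 796.4 reads per library and covers counting error only. Over both lines the difference was -0.38 with a standard error of 0.11 (limma adjusted p = 0.0533). The adjusted p ranged from 0.0109 to 1.0 over the other settings tried, the highest without the cell line in the model. H2AFX is known to be induced with S phase, and 14 genes of proliferation stood beside it as follows. Their median log2 difference was -0.12 in Huh1 and -0.39 in Huh7, beside 0.02 and 0.03 over all genes tested. In limma 4 of 14 fell and 0 rose, while 436 of all 10357 genes tested fell and 625 rose. The part of proliferation in the level of H2AFX was not tested. In RNA of whole cultures, fewer cells that express a gene and less RNA per cell cannot be told apart.

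H2AFZ and H2AFV encode the 2 forms of H2A.Z, which differ by few residues. H2AFZ (NM_002106, chr4:99948086-99950388, minus strand, 5 exons) had 328 and 310.3 RPKM in Huh1 and 444 and 385 in Huh7. H2AFV (NM_138635, chr7:44826791-44848083, minus strand, 5 exons) had 41.6 and 37.1 RPKM in Huh1 and 55.3 and 48.3 in Huh7. Both genes were lower with CDCA8-1siRNA in each line by little, and both Huh7 libraries were above both Huh1 libraries for each of them. The percent of control was 94.7 in Huh1 and 86.5 in Huh7 for H2AFZ, and 89.1 and 87.2 for H2AFV. Over both lines the log2 difference was -0.14 with a standard error of 0.07 for H2AFZ (limma adjusted p = 0.255) and -0.18 with a standard error of 0.09 for H2AFV (limma adjusted p = 0.245). Neither passed the test. H2AFZ held 88.7%, 89.3%, 88.9% and 88.9% of the summed RPKM of the pair in the 4 libraries, a share that moved by less than 1 percentage point while the sum went from 347.4 to 499.8 RPKM. After quantile normalization the share ran from 87.5% to 90.0%. No length fitted the values of H2AFV, so the height of the share rests on a length that could not be checked. The annotation names 6 pseudogenes after H2AFZ and 1 after H2AFV, and reads shared with such copies could not be followed in these values.

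H2AFJ encodes an H2A variant known from senescent and luminal epithelial cells. H2AFJ (NM_177925, chr12:14774383-14778002, plus strand) had 8.03 RPKM with NCsiRNA and 9.95 with CDCA8-1siRNA in Huh1, and 5.15 and 8.12 in Huh7. It was higher with CDCA8-1siRNA in both lines, at 124% and 158% of the control, and it was lower in Huh7 than in Huh1 under each siRNA. The log2 difference was 0.28 ± 0.09 in Huh1 and 0.57 ± 0.10 in Huh7 (SD from sampling of reads). Over both lines it was 0.42 with a standard error of 0.12 (limma adjusted p = 0.0566), with a range of adjusted p from 0.0369 to 1.0 over the other settings. Over both lines H2AFJ had the largest positive and H2AFX the largest negative difference of the members. In Huh7 H2AFX and H2AFY2, at -0.55 and -0.52, were within their SDs of each other. H2AFJ was also the member with the lowest mean level, and its value rested on 230.2 to 481.2 reads. The spacing of its values fitted a transcript of 3667 bases, while the annotated transcript matched to it has 644. Its reads and SDs were computed with the 3667 bases, and with the shorter length the reads would be fewer and the SDs larger.

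The macroH2A genes encode H2A histones with a large extra domain. H2AFY (NM_004893, chr5:135333900-135399914, minus strand, 9 exons), the gene of macroH2A1, had 100.1 and 113 RPKM in Huh1 and 93.4 and 93.6 in Huh7. It had the narrowest range of the members, a 1.21-fold spread over the 4 libraries. H2AFY2 (NM_018649, chr10:70052796-70112280, plus strand, 9 exons), the gene of macroH2A2, had 3.39 and 3.79 RPKM in Huh1 and 17.1 and 11.7 in Huh7. This was the widest range among the members, 5.04-fold. Between siRNAs, H2AFY differed by 0.18 ± 0.04 in Huh1 and by 0.003 ± 0.04 in Huh7 on the log2 scale (SD from sampling of reads), and over both lines by 0.09 with a standard error of 0.09 (limma adjusted p = 0.557). H2AFY2 was at 112% of its control in Huh1 and at 68.2% in Huh7. The log2 difference of 0.13 ± 0.16 in Huh1 was within the SD from 99 and 109 reads, whereas that of -0.52 ± 0.10 in Huh7 rested on 455 and 312 reads. The limma difference over both lines was -0.20 with a standard error of 0.15 (adjusted p = 0.469).

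**Figure D2:**
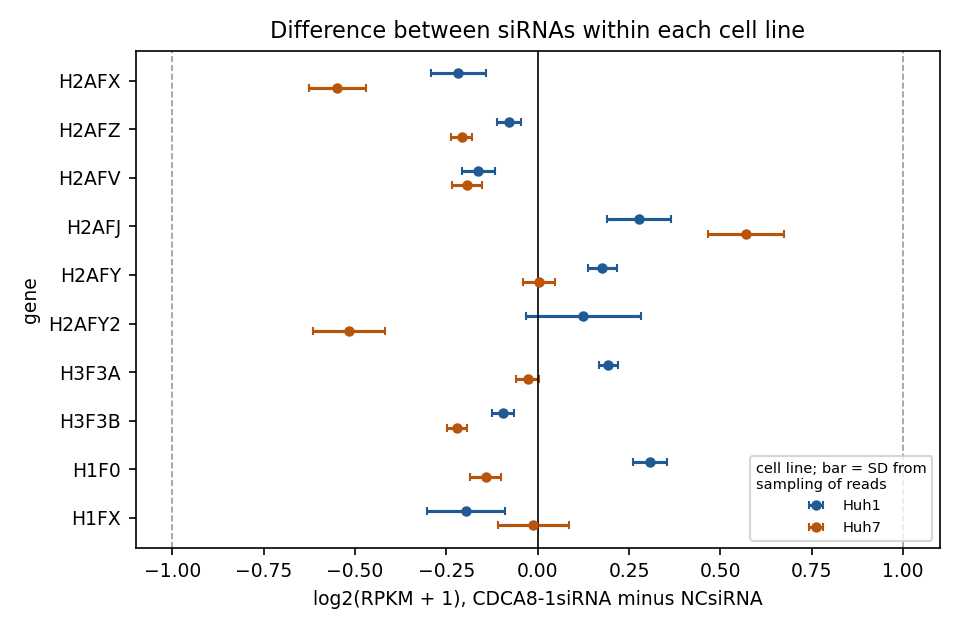
Log2(RPKM + 1) with CDCA8-1siRNA minus NCsiRNA (x) for each member (y), in Huh1 (blue) and Huh7 (orange), with bars for the SD from sampling of reads and dashed lines at 2-fold. No point reaches 2-fold, in Huh7 H2AFJ lies farthest to the right (0.57) and H2AFX and H2AFY2 farthest to the left (-0.55 and -0.52), and H2AFY2, H3F3A and H1F0 have their lines on opposite sides of 0.

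H3F3A and H3F3B encode the same H3.3 protein from different mRNAs. H3F3A (NM_002107, chr1:226061851-226072001, plus strand, 4 exons) had 386 and 442 RPKM in Huh1 and 317 and 312 in Huh7. H3F3B (NM_005324, chr17:75776434-75785893, minus strand, 4 exons) had 134 and 125 RPKM in Huh1 and 176 and 151 in Huh7. H3F3A was above H3F3B in every library, while H3F3A was higher in Huh1 than in Huh7 and H3F3B higher in Huh7 than in Huh1 at each siRNA. The share of H3F3A in the summed RPKM of the pair was 74.3% in Huh1 with NCsiRNA, 77.9% with CDCA8-1siRNA, 64.4% in Huh7 with NCsiRNA and 67.4% with CDCA8-1siRNA. It was higher with CDCA8-1siRNA than with NCsiRNA in both lines, by less than the gap between the lines, and this order also held after quantile normalization, with 72.2%, 75.9%, 65.8% and 70.0%. In Huh1 the log2 difference of H3F3A was 0.19 ± 0.03 and that of H3F3B -0.09 ± 0.03. In Huh7 they were -0.03 ± 0.03 and -0.22 ± 0.03 (SD from sampling of reads), and the value of H3F3A turned to 0.06 with quantile normalization. Over both lines neither passed the test, with 0.08 and a standard error of 0.08 for H3F3A (limma adjusted p = 0.551) and -0.16 and a standard error of 0.08 for H3F3B (limma adjusted p = 0.255). For both genes, reads per library were estimated from annotated lengths, since no length fitted their values. Their order and shares in RPKM thus rest on lengths that could not be checked. By these estimated reads H3F3B was above H3F3A in Huh7, with 5794.1 and 4996.4 against 4212.8 and 4159.2. In Huh1 it was below, with 4839.7 and 4466.5 against 5627.9 and 6344.5. The annotation names 6 pseudogenes after H3F3A and 2 after H3F3B, and reads shared with such copies could not be followed in these values.

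The linker histones bind the DNA that enters and leaves the nucleosome. H1F0 (NM_005318, chr22:37805093-37807436, plus strand, 1 exon), the gene of H1.0, had 53.7 and 66.7 RPKM in Huh1 and 85.3 and 77.2 in Huh7. H1FX (NM_006026, chr3:129314771-129316277, minus strand, 1 exon), the gene of H1X, had 17.6 and 15.2 RPKM in Huh1 and 22.2 and 22.0 in Huh7. With CDCA8-1siRNA H1F0 was higher in Huh1, at 124% of control, and lower in Huh7, at 90.5%. H1FX was at 86.6% in Huh1 and 99.1% in Huh7. The log2 difference of H1F0 was 0.31 ± 0.05 in Huh1, the largest of the members in that line, and -0.14 ± 0.04 in Huh7 (SD from sampling of reads). In Huh1 H1F0 and H2AFJ, the latter at 0.28 ± 0.09, were within their SDs of each other. Neither gene passed the test over both lines, with 0.08 and a standard error of 0.11 for H1F0 (limma adjusted p = 0.691) and -0.10 and a standard error of 0.10 for H1FX (limma adjusted p = 0.569). H1F0 made up 75.3% and 81.4% of the summed RPKM of the pair in Huh1, and 79.3% and 77.8% in Huh7.

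**Figure D3:**
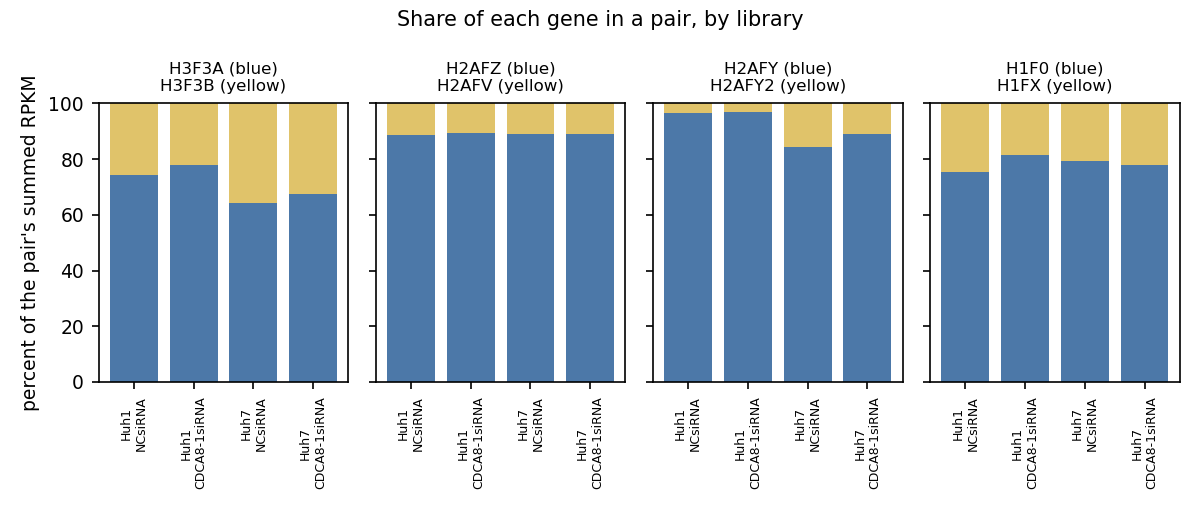
Percent of the summed RPKM of each pair (y, from 0 to 100) taken by its first gene (blue) and its other gene (yellow), in each of the 4 libraries (x). The share of H2AFZ stays between 88.7% and 89.3%, H3F3A takes less of its pair in Huh7 (64.4% and 67.4%) than in Huh1, and H2AFY2 takes more of its pair in Huh7 (15.5% and 11.1%) than in Huh1 (3.28% and 3.24%).

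More members passed the test between the cell lines than between the siRNAs. Each line had 1 library per siRNA, so the p-values between lines do not measure the spread between cultures of a line. Between Huh7 and Huh1, 8 of 10 members had an adjusted p under 0.05 in limma, against 67.7% of all genes tested, so that the share was near that of all genes. Of these, 6 were higher in Huh7 (39.1% of all genes) and 2 lower (28.7%). With no filter on low values, 1 of the 8 calls was left, that of H2AFV, and 29.5% of all genes passed. The median log2 difference of the members was 0.35, beside 0.10 over all genes. H2AFY2, the gene of macroH2A2, had the largest difference, 1.72 with a standard error of 0.15 (limma adjusted p = 7.94e-06), and its level in Huh7 was 5.04 times that in Huh1 with NCsiRNA and 3.08 times with CDCA8-1siRNA. Since H2AFY was at 0.933 and 0.826 times, the share of H2AFY2 in the macroH2A pair was 3.28% and 3.24% in Huh1 and 15.5% and 11.1% in Huh7. The other genes that were higher in Huh7 had log2 differences of 0.33 for H3F3B, 0.37 for H2AFZ, 0.39 for H2AFV, 0.41 for H1FX and 0.43 for H1F0 (limma adjusted p from 0.00137 to 0.00679). With quantile normalization the differences of these genes ran from 0.323 for H1FX to 0.607 for H2AFZ. H2AFJ and H3F3A were lower in Huh7, by log2 differences of -0.41 with a standard error of 0.12 (limma adjusted p = 0.0134) and -0.39 with a standard error of 0.08 (limma adjusted p = 0.00158). For H3F3A that difference was -0.09 after quantile normalization and no longer passed (limma adjusted p = 0.32). H2AFX, at 0.07 with a standard error of 0.11 (limma adjusted p = 0.58), and H2AFY, at -0.19 with a standard error of 0.09 (limma adjusted p = 0.0805), did not pass. The 5 fibroblast markers summed to at most 0.211 RPKM in Huh1 and to 141 and 187 RPKM in Huh7, and their part in the differences between the lines was not tested. H2AFX was 1.18 times as high in Huh7 as in Huh1 with NCsiRNA and 0.933 times with CDCA8-1siRNA.

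**Figure D4:**
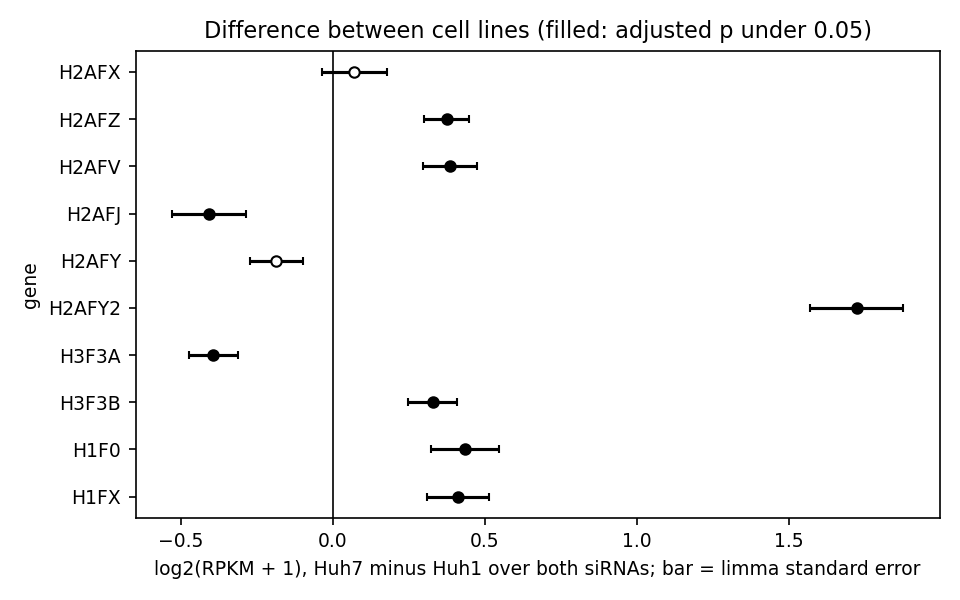
Log2(RPKM + 1) in Huh7 minus Huh1 over both siRNAs (x) for each member (y), with the standard error of limma as bars and filled points for an adjusted p under 0.05. H2AFY2 stands apart at 1.72, 5 genes lie between 0.33 and 0.43, and H2AFJ and H3F3A lie near -0.4.

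The machinery that places and removes these histones was looked at as a list of 50 genes, of which 49 had a row and were tested. Of the 49, 3 fell and 0 rose between siRNAs in limma, 6.12% against 10.2% of all genes, and the median log2 difference was -0.06. Among 9 genes for the deposition of H3.3, the HIRA and DAXX-ATRX complexes with ASF1, 1 fell. This was ASF1B, the ASF1 form known from dividing cells, which had 16.9 and 13.4 RPKM in Huh1 and 26.8 and 17.3 in Huh7, a difference of -0.46 with a standard error of 0.11 (limma adjusted p = 0.032). Among 19 genes for the exchange of H2A.Z, the SRCAP, EP400 and INO80 complexes and ANP32E, 0 passed, and the median was -0.04. Of 17 replication-coupled and general chaperones 2 fell. NPM1, the abundant nucleolar chaperone, had 1360 and 972 RPKM in Huh1 and 941 and 652 in Huh7, a difference of -0.51 with a standard error of 0.06 (limma adjusted p = 0.00253). SUPT6H, which keeps nucleosomes in place behind RNA polymerase, had 33.6 and 28.4 RPKM in Huh1 and 51.7 and 26.3 in Huh7, a difference of -0.59 with a standard error of 0.15 (limma adjusted p = 0.0383). For all 3 genes the level was lower with CDCA8-1siRNA in both lines, by more in Huh7, though for NPM1 the log2 differences of -0.48 and -0.53 were close. Of 4 genes for the deposition of CENP-A, the centromeric H3 variant, 0 passed, with a median of -0.16. The count of 3 changed from 0 to 5 with the settings, as given under the dependence on the processing.

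The genes that phosphorylate and read H2A.X, among them ATM, ATR, MDC1 and TP53BP1, showed no call either. Of 13 listed, 12 had a row and were tested. In limma between siRNAs 0 passed, against 10.2% of all genes. The median log2 difference was 0.003, beside 0.03 over all genes. Of 11 other histone genes outside the clusters, 6 had a row and 2 were high enough to be tested, and neither passed. CENPA had 7.21 and 5.57 RPKM in Huh1 and 15.4 and 17.7 in Huh7, opposite in direction between the lines. H3F3C, a relative of the H3.3 genes, was near the filter, at 1.78 and 2.15 RPKM in Huh1 and 1.87 and 1.62 in Huh7. The 4 others, known from the germ line, had less than 0.1 RPKM in every library.

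The clustered histone genes are given beside the members. Of 63 with a row, 19 were high enough to be tested, 4 rose and 0 fell in limma, beside 6.03% of all genes that rose, and the median log2 difference was 0.57, with 0.20 in Huh1 and 1.02 in Huh7. The members that passed the same filter had -0.12, 0.02 and -0.17. Since most of the 63 clustered genes did not pass the filter, their median describes the 19 alone, and the difference between the lists was not tested. Clustered histone mRNAs mostly lack a poly(A) tail, so their values also depend on how RNA was selected for the libraries. That selection was not established here. H2AFX, the member with the stem-loop, was lower in both lines (-0.22 and -0.55).

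**Figure D5:**
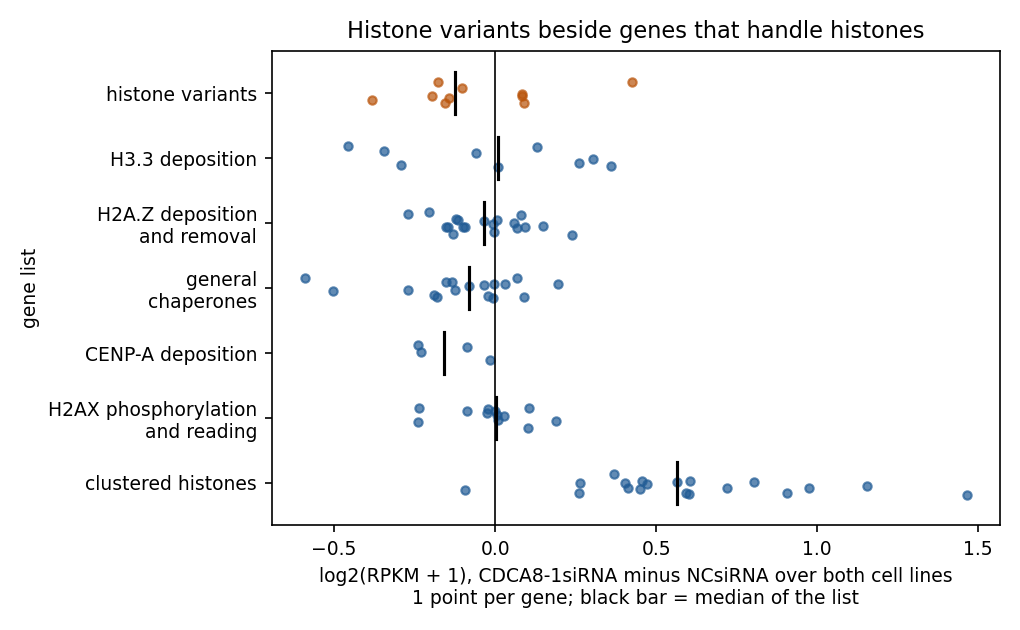
Log2(RPKM + 1) with CDCA8-1siRNA minus NCsiRNA over both lines (x), with 1 point per tested gene and a black bar at the median, for the histone variants (orange) and for lists of genes that handle histones and the clustered histones (blue). The variants have a median of -0.12 and the clustered genes of 0.57, and the lists of deposition genes have medians from -0.16 to 0.01.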

How the data were processed

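The authors deposited 1 table per library with a value for each of 18398 RefSeq transcripts. The unit of these deposited values is not stated and was deduced to be RPKM from their spacing. With annotated lengths, between 35.1% and 38.0% of the low values in a library came to whole reads. The submitters' processing notes name CASAVA 1.8.2, TopHat2 2.0.9 and the build hg19, while the counter and the annotation are not given in the sources used here. Groups were taken from the labels, which name the siRNA against CDCA8 only as CDCA8siRNA. The name CDCA8-1siRNA, the dose and the time were taken from the study's text. The members and the gene lists were chosen with earlier results of these data known. All members, called list genes and CDCA8 were to be named. Genes most like a member were to be named for members called between siRNAs, of which there were 0.

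Differences were taken on log2(RPKM + 1), which understates changes of low genes. limma 3.58.1 in R 4.3.3 (lmFit, eBayes with trend, Benjamini-Hochberg) was fitted to all 4 libraries with the cell line and the siRNA as terms. The residual degrees of freedom were 1 and those of the prior 8.29. The test described for the study needs replicates and was not repeated. Reads were estimated from RPKM and transcript length. Lengths from 150 to 11999 bases were searched so that all 4 values became multiples of a fraction of a read, a step added after seeing the data. Of 10 members 7 had such a length, and for H2AFV, H3F3A and H3F3B the annotated length was used. Figures and counts used Python 3.11.15, numpy 2.4.6, pandas 2.3.3 and matplotlib 3.10.9. Gene positions came from GENCODE 29 on GRCh38 and promoter windows from RefSeq, and none of them is in hg19.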

Additional observations from a re-analysis of the deposited data

Results flagged for a closer look

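In 3 members the libraries of Huh1 and Huh7 moved in opposite directions with CDCA8-1siRNA. The log2 difference in Huh7 minus that in Huh1 was -0.641 for H2AFY2, with an SD from sampling of reads of 0.185, -0.450 for H1F0, with an SD of 0.0628, and -0.220 for H3F3A, with an SD of 0.041. For H2AFY2 the value in Huh1, and for H3F3A the value in Huh7, was within 1 SD of 0, that is, within counting error, whereas both values of H1F0 were over 3 such SDs from 0. With 1 library per line and siRNA the difference between the lines was not tested, and 30.6% of all genes moved in opposite directions as well.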

How the results depend on the processing

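Between siRNAs, the count of members called changed from 0 to 2 of 9 tested with a filter at 5 RPKM, which H2AFY2 did not pass (H2AFX and H2AFJ, limma adjusted p = 0.0413 and 0.0376, with 13.2% of all genes called), and to 2 of 10 with quantile normalization (0.0109 and 0.0369, with 14.8% called). The calls between lines went from 8 to 1 with no filter on low values, where 5433 of 18398 genes were called. The count of deposition genes called went from 3 to 0 with no filter, to 5 with quantile normalization, to 1 without the trend and to 0 with the siRNA as the sole term. The difference of H2AFX between lines turned from 0.07 to -0.024 with quantile normalization (limma adjusted p = 0.852). That setting moved the median over all genes between lines from 0.10 to -0.01, and all differences between lines are to be read against it. H2AFY passed between lines with upper quartile scaling, at -0.24 (limma adjusted p = 0.0295). H2AFJ and H3F3B did not pass between lines with the siRNA left out of the model (limma adjusted p = 0.191 and 0.06). Over all genes, calls between siRNAs went from 1061 to 0 with no filter and to 0 with the line left out of the model, and otherwise lay between 710 and 1539. Of these, 625 of 1061 were higher as deposited and 789 of 1539 after quantile normalization. The causes were not tested. Of 256 log2 differences of single members under the alternatives, 253 kept their direction. The others were that of H2AFX between lines, H3F3A in Huh7 (0.064 with quantile normalization) and H1FX in Huh7 (0.001 with upper quartile scaling). Many of the 256 could not turn, since the filters, the trend and a left-out term do not alter the difference itself. A changed pseudocount cannot turn a difference within 1 line. Of the 138 differences with a test, 123 kept their side of the threshold. A plain ratio of RPKM within a line, an alternative chosen after seeing the data, keeps the direction by construction and is no check of it. With the cell line as a term, the siRNAs were compared within lines, and with 1 library per group none was left out. With the transcript lengths used, sampling of reads sets an SD of up to 0.157 on the log2 difference of a member in 1 line. Variation between cultures is not in it.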
